A study of Mus musculus with 40 samples.

Results

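Transcript levels of 10 genes that mark the cells lining blood vessels were followed through the uteri of mice given doxorubicin, anti-Müllerian hormone (AMH), both or neither. The genes were taken by name: Kdr, Flt1, Tek, Tie1, Cdh5, Pecam1, Emcn, Vwf, Selp and Sele, 10 of 54532 genes in the table, and all 10 were found. Doxorubicin, a chemotherapy drug of the anthracycline class, causes DNA breaks through topoisomerase II, and AMH is a TGF-beta family hormone. The groups at 24 h and again at 4 h after treatment were doxorubicin with AMH, doxorubicin, AMH and vehicle (PBS or saline), with 5 libraries in each, 40 libraries in all. All animals were prepubertal and were treated on postnatal day 25, as the series describes it, and the labels give no pubertal or oestrus stage for single libraries. Doxorubicin was given at 3 mg/kg in 2 weekly doses, and the labels give 0.75 mg/kg for AMH. By their labels the libraries are biological replicates, but the labels do not say that each came from 1 mouse, so the p-values measure the spread between these libraries, which may be partly technical.

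Endothelial cells form the inner wall of every blood vessel. They read growth signals through receptor tyrosine kinases: Kdr and Flt1 bind vascular endothelial growth factor (VEGF), and Tek binds the angiopoietins, with Tie1 as its co-receptor. The cells are held together by adhesion proteins, shed coagulation factors stored in granules, and display selectins that catch passing leukocytes when tissue is inflamed. In the uterus these vessels grow and regress with the ovarian hormones.

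Bulk uterus was measured, so fewer endothelial cells and less RNA per endothelial cell cannot be told apart. The tissue label fits its markers: the oestrogen receptor gene Esr1 ranged from 36.2 to 52.9 FPKM (fragments per length of gene and per size of library), Hoxa10 from 41.6 to 129 FPKM and the smooth muscle myosin gene Myh11 from 136 to 390 FPKM. From 16251563 to 27391049 reads per library fell in genes. A group of 3 libraries of vehicle-treated uterus at 24 h and 1 of AMH-treated uterus at 24 h stood apart with high oestrogen-responsive genes, and 9 libraries spread over 5 groups held high levels of oviduct and cilia genes.

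In the table's mm10 coordinates both selectin genes lie on chromosome 1, Sele (ENSMUSG00000026582) at chr1:164048234-164057677 and Selp (ENSMUSG00000026580) at chr1:164115264-164150026. The angiopoietin receptor genes lie on chromosome 4, Tek (ENSMUSG00000006386) at chr4:94739289-94874976 and Tie1 (ENSMUSG00000033191) at chr4:118471191-118490061. The VEGF receptor genes lie on chromosome 5, Kdr (ENSMUSG00000062960) at chr5:75932827-75978458 and Flt1 (ENSMUSG00000029648) at chr5:147561604-147726011. Emcn (ENSMUSG00000054690) is at chr3:137341067-137432185, Vwf (ENSMUSG00000001930) at chr6:125546774-125686679, Cdh5 (ENSMUSG00000031871) at chr8:104101625-104144511 and Pecam1 (ENSMUSG00000020717) at chr11:106654217-106750628.

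The start regions of 4 members are shown because they differ in the short GGAA core that ETS family factors bind, a family known for its role in endothelial genes. Each is 300 bases around a start that RefSeq gives on GRCm38.p6, and for Tie1 most of the window lies inside the gene as the table's coordinates place it. The sequences are written 5′ to 3′ on the gene's strand, with GGAA and its reverse complement TTCC in capitals. Tek lies at chr4:94739039-94739338 (plus strand), Tie1 at chr4:118489800-118490099 (minus strand), Flt1 at chr5:147725962-147726261 (minus strand) and Sele at chr1:164047984-164048283 (plus strand).
Tek: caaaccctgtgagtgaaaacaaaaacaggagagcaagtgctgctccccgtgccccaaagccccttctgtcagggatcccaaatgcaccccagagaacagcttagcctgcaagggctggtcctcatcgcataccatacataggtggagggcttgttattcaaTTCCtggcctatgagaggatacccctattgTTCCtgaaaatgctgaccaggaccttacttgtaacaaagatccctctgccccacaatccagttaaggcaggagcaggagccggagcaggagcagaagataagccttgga
Tie1: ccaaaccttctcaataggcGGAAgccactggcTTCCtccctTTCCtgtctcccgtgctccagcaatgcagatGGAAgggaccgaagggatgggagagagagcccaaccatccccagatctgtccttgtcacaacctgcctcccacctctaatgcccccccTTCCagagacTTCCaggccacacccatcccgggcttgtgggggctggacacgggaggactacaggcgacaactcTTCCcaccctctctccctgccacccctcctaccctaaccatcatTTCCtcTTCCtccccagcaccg
Flt1: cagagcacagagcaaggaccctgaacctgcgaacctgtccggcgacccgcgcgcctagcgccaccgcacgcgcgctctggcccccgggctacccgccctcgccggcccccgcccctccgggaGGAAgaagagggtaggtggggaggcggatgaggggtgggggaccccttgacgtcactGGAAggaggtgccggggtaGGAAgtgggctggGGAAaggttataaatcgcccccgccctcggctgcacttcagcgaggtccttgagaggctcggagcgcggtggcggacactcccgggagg
Sele: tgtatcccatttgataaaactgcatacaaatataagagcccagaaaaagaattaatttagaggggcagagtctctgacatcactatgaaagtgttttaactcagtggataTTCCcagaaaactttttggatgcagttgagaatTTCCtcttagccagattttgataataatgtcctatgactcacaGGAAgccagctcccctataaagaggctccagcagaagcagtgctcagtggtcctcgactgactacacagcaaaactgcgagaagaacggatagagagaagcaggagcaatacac
The window held 9 matches in Tie1, 4 in Flt1, 3 in Sele and 2 in Tek. Of the other members in the RefSeq table, Selp held 8, Emcn 6 and Kdr 5, so that 7 of 10 members matched an entry. At least 1 match was present in 96% of 32851 promoters of the same length, with a median of 3 matches and quartiles of 2 and 5, so presence of the motif does not set these genes apart.

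Expression per kilobase ordered the members over a wide range. Cdh5, the VE-cadherin of endothelial junctions, was highest at a mean of 42.9 FPKM over the 40 libraries. Pecam1, another junction protein, averaged 26.8 FPKM, Tie1 19.3 FPKM, Tek 12.8 FPKM and Kdr 11.6 FPKM. Emcn, a sialomucin of capillary and venous endothelium, averaged 7.50 FPKM, Flt1 5.04 FPKM, Vwf 3.39 FPKM, Selp 1.53 FPKM and Sele 0.282 FPKM. The filter on low values, 1 FPKM or more in at least 5 libraries, was passed by 9 of the 10 members and by 16226 genes in all. Sele reached 1 FPKM in 1 library and was handled separately.

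The stable and the variable members were different ones. The coefficient of variation over the 40 libraries was 17.2% for Kdr, 18.4% for Emcn and 18.9% for Pecam1, and it was 37.5% for Vwf, 47.7% for Selp and 162% for Sele. Group means were lowest in vehicle-treated uterus at 24 h for 9 of the 10 members, and Vwf was lowest in vehicle-treated uterus at 4 h. A single vehicle library at 24 h, replicate 2, held the lowest of the 40 values for 8 of the 10 members.

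**Figure D1:**
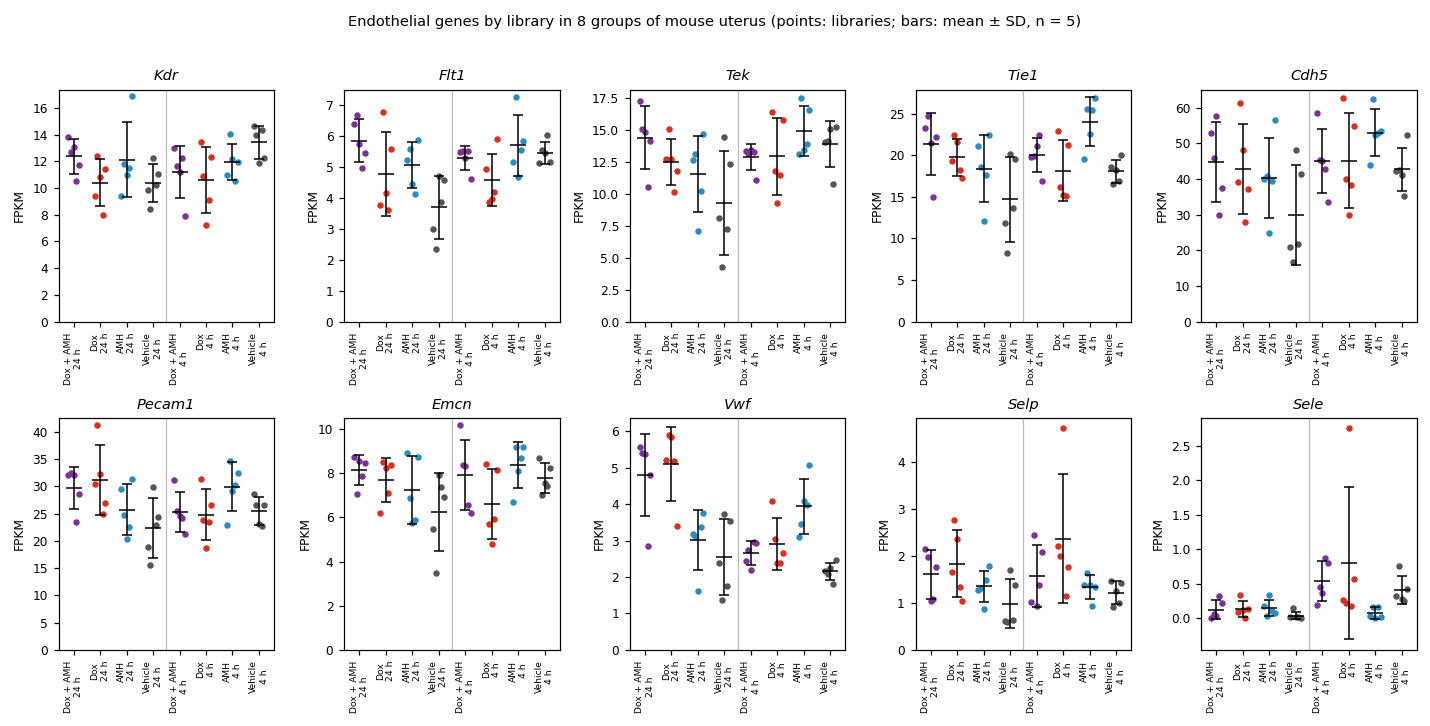
FPKM of each of the 10 members (vertical axis) in every library, in 8 groups along the horizontal axis with the 24 h groups on the left and the 4 h groups on the right; points are libraries and bars are the mean ± SD (n = 5). Vehicle libraries at 24 h spread widely for Cdh5, between 16.6 and 48.1 FPKM, and 1 doxorubicin library at 4 h stands alone for Sele at 2.75 FPKM.

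At 24 h, doxorubicin-treated uteri held more transcript of Vwf and Pecam1 than vehicle-treated uteri. Vwf encodes von Willebrand factor, the clotting protein that endothelial cells store in Weibel-Palade bodies. Vwf stood at 5.21, 5.91, 5.85, 5.19 and 3.39 FPKM in the doxorubicin libraries, against 2.39, 1.37, 3.73, 1.76 and 3.53 FPKM in the vehicle libraries. All but 1 of the doxorubicin libraries lay above all vehicle libraries, and the lowest one fell among them. The difference was 0.81 ± 0.17 (log2 of FPKM plus a pseudocount of 1, ± SE), a 2.00-fold ratio of means, with limma adjusted p = 0.0028 and doxorubicin higher in 23 of 25 pairs of libraries. An adjusted p under 0.05 over all 16226 genes was the threshold for calling a gene.

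Pecam1, at 30.5, 41.3, 32.2, 24.9 and 26.9 FPKM in doxorubicin libraries and 19.0, 15.6, 29.9, 22.9 and 24.4 FPKM in vehicle libraries at 24 h, rose by 0.47 ± 0.15 (log2 ± SE; limma adjusted p = 0.029). Most of the doxorubicin libraries were above the vehicle ones, with an overlap at the edge. With these, 2 of 9 tested members rose and 0 fell, against 18.4% of all tested genes called in either direction and 8.44% called higher. The median change of the 9 members was 0.47, beside -0.012 over all genes tested. Vwf stayed called with any 1 library left out and Pecam1 in 5 of 10 such fits, and in a fit of only the groups compared 0 members were called (limma adjusted p = 0.11 for Vwf). Between the same groups all 12 oviduct and cilia genes were higher with doxorubicin than with vehicle, by a median of 2.08, and 1 passed. Doxorubicin replicates 3, 4 and 5 held the high levels, and without the libraries of high oviduct level 3 members were called. Of 7 tested leukocyte genes 5 were higher and 2 lower with doxorubicin. Adgre1, a macrophage marker, rose by 0.72 (limma adjusted p = 0.020) and lost the call in 5 of 10 fits with 1 library left out. Csf1r and Itgam differed by -0.42 and -0.37 and were not called (limma adjusted p = 0.11 and 0.30). With doxorubicin and AMH these 2 genes fell, by 0.57 and 0.78 (limma adjusted p = 0.024 and 0.020). The part of other cell types in the Vwf and Pecam1 calls was not tested further.

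The other members did not pass. Cdh5 averaged 42.7 ± 12.6 FPKM with doxorubicin and 29.8 ± 14.0 FPKM with vehicle (SD, n = 5 each), a log2 difference of 0.58 with limma adjusted p = 0.078. Tie1 averaged 19.8 ± 2.19 FPKM with doxorubicin and 14.7 ± 5.11 FPKM with vehicle, with a difference of 0.46 at the edge of the threshold (limma adjusted p = 0.050). Tek differed by 0.48, Selp by 0.51, Flt1 by 0.30 and Emcn by 0.30, with limma adjusted p-values between 0.068 and 0.15. Kdr, the main signalling receptor for VEGF, had nearly equal means: 10.4 ± 1.75 FPKM with doxorubicin and 10.4 ± 1.41 FPKM with vehicle, with a 95% interval of the difference from -0.28 to 0.28.

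With AMH given beside doxorubicin, Flt1, Tek, Tie1, Cdh5, Pecam1 and Vwf were above the vehicle level at 24 h. In total 6 of 9 tested members rose in uteri given doxorubicin with AMH relative to vehicle and 0 fell, where 34.3% of all tested genes were called and 15.7% were called higher. The median over the 9 members was 0.55, beside -0.0047 over all genes tested. The comparisons of doxorubicin and of doxorubicin with AMH use the same 5 vehicle libraries, so their calls are not separate evidence. With any 1 library left out Flt1 and Vwf stayed called, Tek and Tie1 lost the call without vehicle replicate 2, and Cdh5 lost it in 6 and Pecam1 in 5 of 10 such fits. In a fit of only the groups compared 0 were called (limma adjusted p = 0.055 for Flt1 and 0.065 for Vwf).

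Flt1, a VEGF receptor whose soluble form traps the ligand, showed the cleanest separation. It stood at 6.37, 6.69, 5.74, 4.97 and 5.44 FPKM with doxorubicin and AMH, against 2.98, 2.33, 4.69, 3.86 and 4.58 FPKM with vehicle. All treated libraries were above all vehicle libraries, as was the case for 4.2% of all tested genes in this direction. The difference was 0.57 ± 0.14 (log2 ± SE; limma adjusted p = 0.0028), a 1.58-fold ratio of means.

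Vwf stood at 5.58, 5.39, 5.39, 2.86 and 4.80 FPKM with doxorubicin and AMH, against 2.39, 1.37, 3.73, 1.76 and 3.53 FPKM with vehicle. Only replicate 4 of the treated libraries lay within the vehicle range. The difference was 0.73 ± 0.17 (log2 ± SE; limma adjusted p = 0.0027), a 1.88-fold ratio of means.

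The angiopoietin receptor pair moved alike. Tek stood at 17.3, 15.1, 14.9, 10.6 and 14.2 FPKM with doxorubicin and AMH, against 8.11, 4.31, 14.5, 7.26 and 12.4 FPKM with vehicle. Vehicle replicates 3 and 5 reached the treated range and the other vehicle libraries lay below it. Tek rose by 0.66 ± 0.19 (log2 ± SE; limma adjusted p = 0.0098). Tie1 averaged 21.3 ± 3.73 FPKM with doxorubicin and AMH and 14.7 ± 5.11 FPKM with vehicle (SD, n = 5 each), and rose by 0.55 ± 0.17 (limma adjusted p = 0.012).

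The junction genes followed. Cdh5 stood at 53.0, 45.9, 57.6, 30.0 and 37.5 FPKM with doxorubicin and AMH, against 21.0, 16.6, 48.1, 21.8 and 41.4 FPKM with vehicle, and rose by 0.65 ± 0.24 (log2 ± SE; limma adjusted p = 0.033). The groups overlapped because vehicle replicates 3 and 5 were as high as treated ones. Pecam1 averaged 29.7 ± 3.87 FPKM with doxorubicin and AMH and 22.4 ± 5.44 FPKM with vehicle and rose by 0.42 ± 0.15 (limma adjusted p = 0.031). Emcn, at a difference of 0.37 (limma adjusted p = 0.053), Selp, at 0.41 (limma adjusted p = 0.11), and Kdr, at 0.24 (limma adjusted p = 0.18), did not pass.

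**Figure D2:**
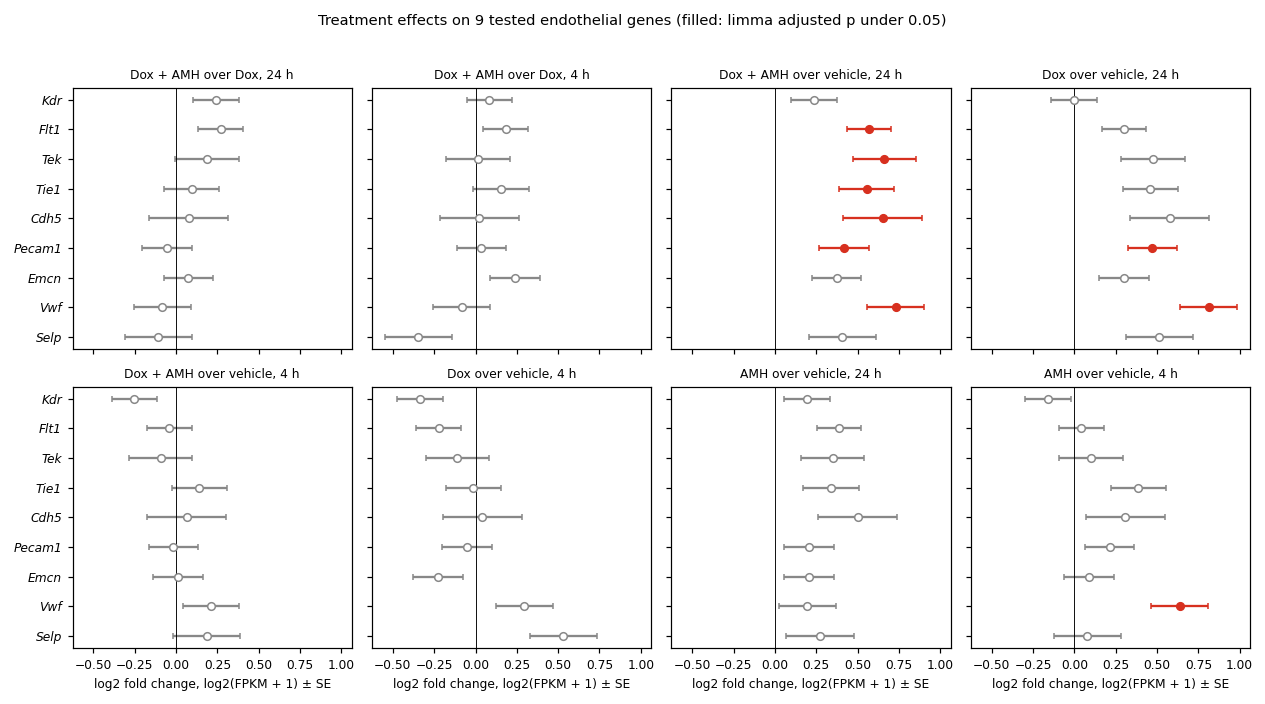
Log2 fold change with its SE (horizontal axis, on the log2(FPKM + 1) scale) of the 9 tested members (vertical axis) in 8 comparisons, 1 per panel; filled points passed limma's adjusted p of 0.05. At 24 h the changes against vehicle lie right of 0 for all 9 members with doxorubicin and AMH, 6 of them called, and at 4 h Vwf is called with AMH alone.

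The vehicle libraries at 24 h were not alike, and the endothelial genes split with them. Vehicle replicates 1, 2 and 4 had an oestrogen-responsive score, the mean log2(FPKM + 1) of 14 genes, that was 1.76, 2.83 and 1.74 above the median of the 40 libraries. Vehicle replicates 3 and 5 were 0.24 and 0.0065 below that median, and no library of doxorubicin with or without AMH was more than 1 above it. In the 3 vehicle libraries with a high score Cdh5 ranged from 16.6 to 21.8 FPKM, against 41.4 to 48.1 FPKM in the other 2.

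Other members divided the same libraries. Tek ranged from 4.31 to 8.11 FPKM in the vehicle libraries with a high score and from 12.4 to 14.5 FPKM in the others, and Vwf from 1.37 to 2.39 FPKM and from 3.53 to 3.73 FPKM. Selp ranged from 0.602 to 0.634 FPKM in the libraries with a high score and from 1.38 to 1.70 FPKM in the others. Emcn overlapped, at 3.49 to 7.38 FPKM with a high score and 6.92 to 7.91 FPKM without, and Sele was low throughout. Markers of mural cells, which wrap the vessels, were also lower there: their score lay 0.59 to 0.88 below the median of 40 in the 3 libraries, against 0.069 below and 0.050 above in the other 2.

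The calls at 24 h were lost when those libraries were left out. Without the 4 high-score libraries (3 of vehicle, 1 of AMH), an alternative chosen after seeing the data, 0 members were called for doxorubicin against vehicle and 0 for doxorubicin with AMH against vehicle. The change of Vwf was then 0.38 with doxorubicin (limma adjusted p = 0.41) and 0.30 with doxorubicin and AMH (limma adjusted p = 0.54), and that of Flt1 with doxorubicin and AMH was 0.27 (limma adjusted p = 0.53). Cdh5 was then at -0.11 with doxorubicin and -0.034 with doxorubicin and AMH. That fit keeps only 2 vehicle libraries at 24 h. It leaves out the vehicle libraries with the lowest means of the members, so smaller differences follow from that choice. Calls were also lost outside the endothelial genes. With doxorubicin the smooth muscle genes Acta2 and Des, called with all libraries at -1.03 and -0.76, then differed by -0.76 and -0.54 (limma adjusted p = 0.074 and 0.28). Myh11, another such gene, was at -0.83 with all libraries and again in that fit (limma adjusted p = 0.00079 and 0.05). The lost calls are thus not shown to be particular to the endothelial genes, though Myh11 kept the size of its change. With the oestrogen-responsive score as a covariate, Vwf alone passed for doxorubicin (0.54, limma adjusted p = 0.018) and 0 members passed for doxorubicin with AMH.

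The oestrogen-responsive genes themselves differed between the groups. Against vehicle at 24 h, 8 of 14 tested fell with doxorubicin and AMH, among them Igf1 by 1.88 and Lcn2 by 3.76 on the log2 scale (limma adjusted p = 0.00026 and 0.0017). With doxorubicin alone 2 of 14 fell, Igf1 by 1.90 and Sprr2b by 2.16 (limma adjusted p = 0.0004 and 0.020). Of all tested genes 18.6% and 9.95% were called lower in these comparisons, and leaving out 1 library at a time gave 4 to 9 fallen genes with both agents and 1 to 7 with doxorubicin. Smooth muscle genes of the uterus list also fell with doxorubicin, Acta2 by 1.03 and Myh11 by 0.83 (limma adjusted p = 4.8e-05 and 0.00079). Beyond the fits above, the part that other cell types had in the endothelial differences was not tested.

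**Figure D3:**
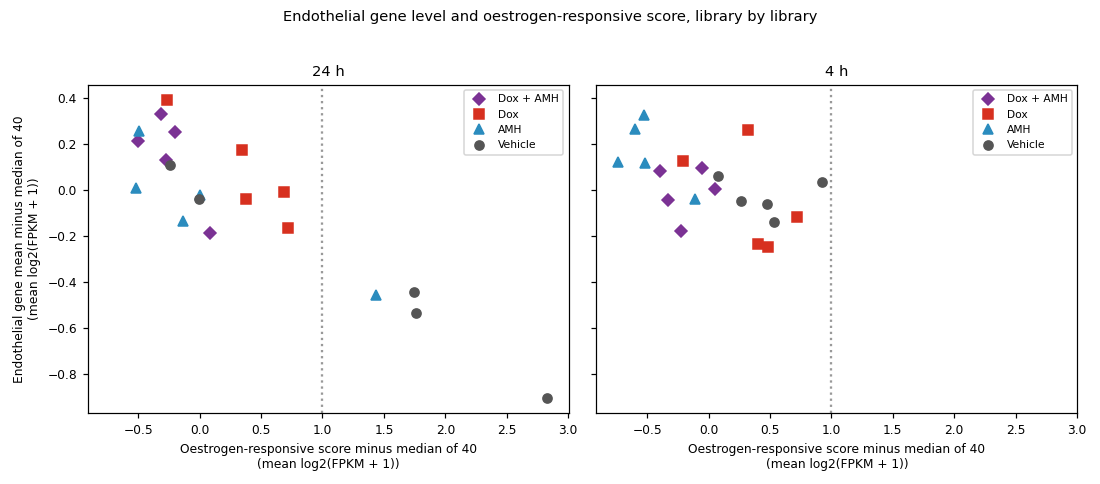
Mean log2(FPKM + 1) of the 9 tested members (vertical axis) against the oestrogen-responsive score (horizontal axis), both as the difference from the median of the 40 libraries, at 24 h on the left and 4 h on the right; each point is a library and the dotted line marks a score of 1. A total of 3 vehicle libraries and 1 AMH library lie right of the line at 24 h, with the lowest endothelial means, and none lies there at 4 h.

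Lists of vessel-related genes beyond the 10 members were read in the same fits. Of 24 other endothelial genes, all tested, 13 rose with doxorubicin and AMH and 7 rose with doxorubicin at 24 h against vehicle, and 0 fell in either. Of all tested genes 15.7% were called higher with both agents and 8.44% with doxorubicin. Mmrn2, an endothelial matrix protein, rose by 0.87 with doxorubicin and AMH and by 0.92 with doxorubicin (limma adjusted p = 0.0025 and 0.0040). The C-type lectin Clec14a rose by 0.76 with both agents and by 0.69 with doxorubicin (limma adjusted p = 0.0015 and 0.0071), and the junction protein Esam by 0.63 and 0.53 (limma adjusted p = 0.0010 and 0.0077). The medians of the list were 0.46 with both agents and 0.40 with doxorubicin. Without the high-score libraries 0 of the 24 were called in either comparison, and leaving out 1 library at a time gave 8 to 14 with both agents (8 without vehicle replicate 2) and 3 to 13 with doxorubicin (3 without doxorubicin replicate 2, 13 without vehicle replicate 3).

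Of the VEGF and angiopoietin pathway genes, which include the ligands of the members, 13 were tested. With doxorubicin alone at 24 h 0 were called by limma, against 18.4% of all tested genes. By limma's unadjusted p under 0.05 there were 3, against 37.3%. With doxorubicin and AMH 4 rose and 1 fell against vehicle, where 34.3% of all tested genes were called and 15.7% were called higher. Vegfa, the main ligand of Kdr, stood at 62.9, 57.7, 42.4, 52.2 and 68.7 FPKM with both agents, against 28.7, 15.5, 40.8, 34.4 and 61.9 FPKM with vehicle. A single vehicle library was among the treated ones and the others were below them. Vegfa rose by 0.74 ± 0.26 (log2 ± SE; limma adjusted p = 0.027). The lymphatic growth factor Vegfc rose by 0.69, Vegfb by 0.35 and the Tek-opposing phosphatase Ptprb by 0.46 (limma adjusted p = 0.011, 0.044 and 0.045). None of these passed without the high-score libraries, and leaving out 1 library at a time gave 0 to 5 risen genes (0 without vehicle replicate 2). Pgf, Angpt1, Nrp1 and Flt4 were called in none of the 10 comparisons.

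Genes of vessel identity and support were read next. Against vehicle at 24 h, 34.3% of all tested genes were called with both agents and 15.7% were called higher. With doxorubicin 18.4% were called and 8.44% were called higher. Of 10 arterial and venous genes, Hey1, a Notch target, rose by 0.58 with doxorubicin (limma adjusted p = 0.0068), and Hey1, Bmx and Gja4 rose with doxorubicin and AMH, by 0.42 to 0.47. Of 9 mural genes, 6 rose with doxorubicin and AMH, led by the channel genes Abcc9 and Kcnj8 of pericytes, by 0.97 and 0.93 (limma adjusted p = 0.0022 and 0.0028), and with doxorubicin alone 0 rose and Cspg4 fell by 0.39 (limma adjusted p = 0.033). Among 7 tested haemostasis genes, 2 rose with both agents, and 3 rose and 1 fell with doxorubicin. Procr, the endothelial protein C receptor, rose by 0.73 with both agents and by 0.57 with doxorubicin (limma adjusted p = 0.0022 and 0.020), and Thbd, thrombomodulin, rose by 0.59 with both (limma adjusted p = 0.028). In these lists 0 genes were called in either comparison without the high-score libraries. With 1 library left out, the risen genes with both agents numbered 0 to 5 in the arterial and venous list (0 without vehicle replicate 2), 3 to 7 in the mural list and 1 to 3 in the haemostasis list. With doxorubicin they numbered 1 to 5, 0 to 6 and 0 to 4 in the same lists.

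Of 4 tested lymphatic genes, 1 was called against vehicle at 24 h. Lyve1, a marker of lymphatic vessels, fell by 0.66 with both agents, by 0.46 with doxorubicin and by 0.76 with AMH (limma adjusted p = 0.0017, 0.030 and 0.014). Of all tested genes 34.3%, 18.4% and 0.462% were called. With 1 library left out, Lyve1 stayed called in every fit with both agents. It lost the call in 6 such fits with doxorubicin and in 3 with AMH (limma adjusted p up to 0.1 and 0.08). Vehicle-treated uteri held more Lyve1 at 24 h than at 4 h, by 0.76 (limma adjusted p = 0.0015). With doxorubicin at 4 h Lyve1 differed by -0.46 (limma adjusted p = 0.16). Pdpn, another marker of lymphatic vessels, differed by 0.51 with both agents and by 0.56 with doxorubicin and did not pass (limma adjusted p = 0.083 and 0.079). Prox1, of the same list, differed by -0.19, -0.15 and -0.19 with both agents, doxorubicin and AMH and did not pass (limma adjusted p = 0.35, 0.50 and 0.51). In the same order Ccl21a, also of that list, differed by -0.0315, -0.997 and -0.349 and did not pass (limma adjusted p = 0.97, 0.22 and 0.78). Without the high-score libraries Lyve1 differed by -0.49 with both agents, -0.29 with doxorubicin and -0.65 with AMH, and was not called (limma adjusted p = 0.28, 0.58 and 0.75).

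Platelets also carry Vwf and Selp. Of 10 platelet genes 3 were tested. Against vehicle at 24 h Gp1ba rose by 0.43 and Pf4 fell by 0.49 with both agents (limma adjusted p = 0.046 each), where 34.3% of all tested genes were called. Each lost the call in 6 of 10 fits with 1 library left out. Without the high-score libraries they differed by 0.17 and -0.31 and were not called (limma adjusted p = 0.82 and 0.65). With doxorubicin 0 were called by limma or had an unadjusted p under 0.05, where limma called 18.4% of all tested genes. The summed platelet level was 9.82 to 14.8 FPKM with both agents, 10.9 to 15.3 FPKM with doxorubicin and 10.2 to 19.3 FPKM with vehicle at 24 h. Gp1bb was at 0 in all 40 libraries, and 8 of the 10 genes averaged under 1 FPKM in every group.

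By limma no member was called between doxorubicin with AMH and doxorubicin alone, and with array weights Flt1 was called at 24 h. Without weights, 0 of 9 members were called at 24 h by limma, where 0.333% of all tested genes were, and 0 had an unadjusted p under 0.05 or were called by voom. Flt1 averaged 5.84 ± 0.693 FPKM with both agents and 4.77 ± 1.36 FPKM with doxorubicin, a log2 difference of 0.27 with a 95% interval from -0.0041 to 0.54. Vwf averaged 4.80 ± 1.13 FPKM with both agents and 5.11 ± 1.02 FPKM with doxorubicin, a difference of -0.083 with an interval from -0.43 to 0.27. The other members lay between -0.11 and 0.24, so differences of up to about the size seen against vehicle lie inside some of these intervals. At 4 h 0 of 9 were called by limma, or by voom, or had an unadjusted p under 0.05, against 0.00616% of all genes called by limma, with differences from -0.35 for Selp to 0.24 for Emcn.

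Vwf rose with AMH alone at 4 h. It stood at 3.11, 3.45, 4.08, 3.97 and 5.08 FPKM with AMH, against 2.17, 2.09, 2.24, 1.82 and 2.47 FPKM with vehicle. All AMH libraries were above all vehicle libraries, a separation found for 11.3% of all tested genes in this direction. The difference was 0.64 ± 0.17 (log2 ± SE; limma adjusted p = 0.012), a 1.83-fold ratio of means. Vwf was the 1 member of 9 called, where 20% of all tested genes were called and 9.13% were called higher.

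Tie1 and Cdh5 leaned the same way without passing. Tie1 stood at 19.6, 25.6, 22.6, 25.4 and 26.9 FPKM with AMH, against 18.6, 16.5, 18.2, 16.9 and 20.0 FPKM with vehicle at 4 h. The groups overlapped in a single pair of libraries, and the difference was 0.39 ± 0.17 (log2 ± SE; limma adjusted p = 0.092). Cdh5 averaged 53.0 ± 6.48 FPKM with AMH and 42.7 ± 6.10 FPKM with vehicle (SD, n = 5 each), a difference of 0.31 with limma adjusted p = 0.37. Kdr was lower with AMH by a log2 difference of -0.16 (limma adjusted p = 0.43).

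Vwf and Cdh5 did not keep a fixed ratio. The ratio of Vwf to Cdh5 within a library, both per kilobase, was 0.0748 ± 0.0143 with AMH at 4 h and 0.0508 ± 0.00269 with vehicle at 4 h (SD, n = 5 each). At 24 h it was 0.108 ± 0.0147 with doxorubicin and AMH, 0.126 ± 0.0378 with doxorubicin, 0.0745 ± 0.00874 with AMH and 0.0881 ± 0.0147 with vehicle. At 4 h the ratio was 0.0617 with both agents and 0.0663 with doxorubicin. The ratio of the 2 VEGF receptors, Flt1 to Kdr, was lowest in vehicle-treated uterus at 24 h, at 0.351 ± 0.0589, against 0.473 ± 0.0329 with doxorubicin and AMH. These ratios are given as descriptions, without a test.

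**Figure D4:**
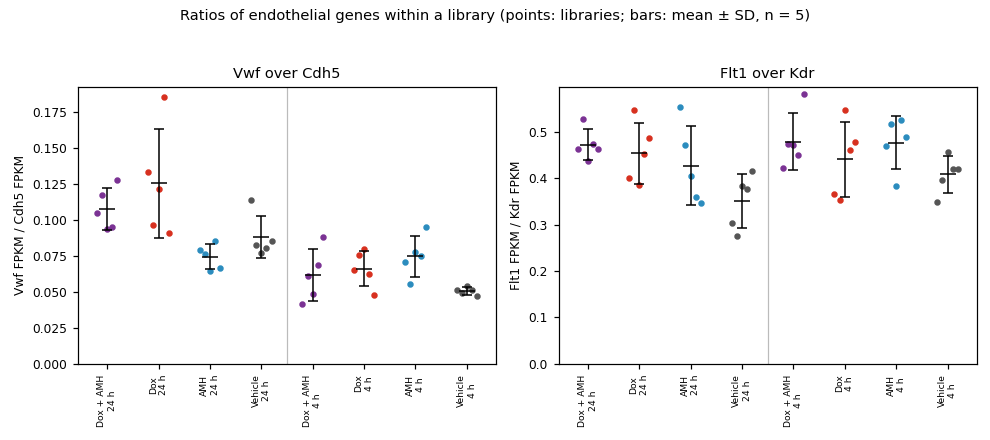
Ratio of Vwf to Cdh5 (left panel) and of Flt1 to Kdr (right panel) in FPKM within each library, by group; points are libraries and bars are the mean ± SD (n = 5). The Vwf to Cdh5 ratio of vehicle libraries at 4 h is tightly grouped between 0.0473 and 0.0544, and the doxorubicin libraries at 24 h spread between 0.0911 and 0.186.

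Some genes of the vessel wall differed with AMH at 4 h. Of 24 other endothelial genes 3 rose and 1 fell, where 9.13% of all tested genes were called higher and 10.9% lower. These counts do not set the list apart. The tight junction gene Cldn5 stood at 51.0, 57.0, 56.9, 73.8 and 69.3 FPKM with AMH, against 25.9, 18.7, 29.3, 15.9 and 24.3 FPKM with vehicle. The AMH libraries were all far above the vehicle ones, and 11.3% of all tested genes separated in this direction. The change was 1.41 ± 0.33 (log2 ± SE; limma adjusted p = 0.0066). Plvap, which builds the diaphragms of leaky capillaries, stood at 33.7, 49.7, 32.0, 45.7 and 37.5 FPKM with AMH, against 78.2, 75.4, 69.7, 75.6 and 64.8 FPKM with vehicle. Here all AMH libraries were below, as for 13% of all tested genes in this direction, and the change was -0.87 ± 0.19 (limma adjusted p = 0.0050).

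Angpt2, the context-dependent ligand of Tek that shares storage granules with Vwf, rose with AMH at 4 h. It averaged 5.84 ± 0.477 FPKM with AMH and 3.51 ± 0.853 FPKM with vehicle (SD, n = 5 each), a change of 0.62 ± 0.16 (log2 ± SE; limma adjusted p = 0.0096). It was the 1 of 13 pathway genes called, where 20% of all tested genes were called, 9.13% higher and 10.9% lower. The arterial genes Dll4, Hey1 and Sox17 rose by 0.81, 0.46 and 0.59 (limma adjusted p = 0.011, 0.020 and 0.020), 3 of 10 in that list. Kcnj8, Mcam and Abcc9 rose among 9 mural genes, by 1.18, 0.60 and 0.90 (limma adjusted p = 0.0030, 0.0035 and 0.0081), and Edn1 and Procr rose and Cd63 fell among 7 haemostasis genes. With 1 library left out, 0 to 2 of the haemostasis genes rose (0 without vehicle replicate 2), and Procr lost the call in 4 and Cd63 in 7 of 10 such fits.

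The oestrogen-responsive score was low in the same libraries: it ranged from 2.98 to 3.60 with AMH and from 3.79 to 4.64 with vehicle at 4 h, and 3 of its 14 genes fell. With the score as a covariate Vwf changed by 0.32 (limma adjusted p = 0.18), and 0 of the other endothelial, pathway and arterial and venous genes were called, while 2 mural genes were. Cldn5 then differed by 0.88, Plvap by -0.73 and Hey1 by 0.38 (limma adjusted p = 0.094, 0.057 and 0.15). The score separates these 2 groups without overlap, so in that fit its part and that of AMH cannot be told apart.

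At 24 h after AMH alone all 9 tested members had a higher mean than vehicle and 0 passed, where 0.462% of all tested genes were called. By limma's unadjusted p under 0.05 there were 2 members, against 18.8% of all genes, and voom called 0 members. Flt1 differed by 0.39 (limma adjusted p = 0.15) and Cdh5 by 0.50 (limma adjusted p = 0.25). The AMH and vehicle groups each held libraries with a high oestrogen-responsive score, and AMH replicate 3 had the lowest value of its group for Tek, at 7.14 FPKM, and for Vwf, at 1.61 FPKM.

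At 4 h no member was called for doxorubicin: 0 of 9 by limma, where 0.493% of all tested genes were called, and 0 by voom. At an unadjusted limma p under 0.05 there were 2 members (Kdr and Selp), against 12% of all genes. Kdr averaged 10.6 ± 2.48 FPKM with doxorubicin and 13.4 ± 1.25 FPKM with vehicle (SD, n = 5 each), a difference of -0.34 ± 0.14 (log2 ± SE; limma adjusted p = 0.31). Flt1 differed by -0.22, Emcn by -0.23, Tek by -0.11, Pecam1 by -0.052, Tie1 by -0.013 and Cdh5 by 0.042, with limma adjusted p-values of 0.53 to 0.99. Vwf was higher by 0.29 (limma adjusted p = 0.51), with the doxorubicin library above in 23 of 25 pairs. With doxorubicin and AMH 0 of 9 were called by limma or voom, where limma called 0.394% of all tested genes. None had an unadjusted p under 0.05, against 17.7% of all genes, and the differences from vehicle ran from -0.25 for Kdr to 0.21 for Vwf.

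The selectins and their partners were the variable part at 4 h. Selp, P-selectin, which is released from the same granules as Vwf and holds rolling leukocytes, stood at 2.20, 1.99, 4.72, 1.14 and 1.77 FPKM with doxorubicin, against 1.47, 0.921, 1.26, 0.995 and 1.41 FPKM with vehicle. Most doxorubicin libraries were above the vehicle ones and replicate 3 was far above. The difference was 0.53 ± 0.20 (log2 ± SE; limma adjusted p = 0.27). Icam1, an adhesion molecule for leukocyte integrins, stood at 12.5, 15.1, 34.9, 6.25 and 13.9 FPKM with doxorubicin, against 6.56, 6.93, 6.33, 6.62 and 5.33 FPKM with vehicle. Replicate 3 was again the highest, and replicate 4 lay among the vehicle libraries. Icam1 rose by 1.06 ± 0.22 (limma adjusted p = 0.011), the 1 of 7 tested adhesion partners called. Of all tested genes 0.493% were called and 0.388% were called higher. Without replicate 3 the change was 0.76 and was no longer called (limma adjusted p = 0.050). Without the libraries of high oviduct level, doxorubicin replicates 3 and 4 among them, it was 0.96 and was called (limma adjusted p = 0.004). Vcam1 and Selplg, the P-selectin ligand of leukocytes, were called in none of the 10 comparisons.

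Sele, E-selectin, which endothelial cells make on inflammatory stimulation, was near the limit of detection. At 4 h it stood at 0.187, 0.456, 0.365, 0.873 and 0.804 FPKM with doxorubicin and AMH, at 0.269, 0.225, 2.75, 0.172 and 0.566 FPKM with doxorubicin, at 0.0377, 0.166, 0, 0.161 and 0.0146 FPKM with AMH, and at 0.324, 0.750, 0.280, 0.254 and 0.424 FPKM with vehicle. The AMH libraries were all below the vehicle libraries, and 1 doxorubicin library stood far above every other. These values rest on few reads: 2, 9, 0, 11 and 1 with AMH and 18, 58, 15, 14 and 24 with vehicle.

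Since Sele failed the filter, each of 9 comparisons was tested by a two-sided exact permutation test on the libraries (5 against 5), with 252 arrangements and a smallest possible p of 0.0079. AMH against vehicle at 4 h gave a log2 difference of -0.38 with exact permutation p = 0.0079, or 0.036 adjusted over the 9 comparisons. A separation in this direction was found for 13% of all tested genes. Vehicle at 24 h against vehicle at 4 h gave -0.43 with the same exact permutation p-values. The other 7 comparisons had exact permutation p-values of 0.29 to 0.93 after adjustment. Fitted by limma over 35714 genes with no filter, Sele passed in none of the comparisons (limma adjusted p = 0.24 for AMH at 4 h and 0.26 for vehicle over time).

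Vehicle-treated uteri differed between the times. Flt1 stood at 2.98, 2.33, 4.69, 3.86 and 4.58 FPKM at 24 h, against 5.12, 5.53, 5.43, 6.01 and 5.16 FPKM at 4 h. All 24 h libraries were below all 4 h libraries, as for 2.06% of all tested genes in this direction. Flt1 fell by 0.49 on the log2 scale (SE 0.14; limma adjusted p = 0.024). Tek fell by 0.62 (SE 0.19; limma adjusted p = 0.043), to a mean of 9.31 ± 4.09 FPKM at 24 h, against 13.9 ± 1.80 FPKM at 4 h (SD, n = 5 each). These were 2 of 9 members, where 7.32% of all tested genes were called and 3.04% were called lower. With 1 library left out Flt1 stayed called in 7 and Tek in 3 of 10 fits, and with only these groups in the fit 0 were called.

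Vwf was the only tested member with a higher mean at 24 h than at 4 h in vehicle-treated uterus, by 0.12 (limma adjusted p = 0.71). Vegfa fell as well, by 0.81 (limma adjusted p = 0.049), and Clec14a, Adgrl4 and Plvap fell among the 24 other endothelial genes, by 0.73, 0.74 and 0.67 (limma adjusted p = 0.0062, 0.013 and 0.024). Without the vehicle libraries of high oestrogen-responsive score 0 members were called, and Flt1 differed by -0.19 and Tek by -0.038. Plvap then differed by -0.95 (limma adjusted p = 0.017) and stayed called, and Clec14a, Adgrl4 and Vegfa, at -0.21, -0.28 and -0.22, did not (limma adjusted p = 0.55, 0.49 and 0.74). With 1 library left out Vegfa lost the call in 7 of 10 fits.

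The doxorubicin effect at 24 h was larger than that at 4 h in 8 of 9 members by its estimate, with a median difference of 0.52 beside -0.0097 over all genes. None of these differences passed (limma adjusted p = 0.49 to 0.99), where 0.0123% of all tested genes did. By limma's unadjusted p under 0.05 there were 5 members, against 9.74% of all genes, and voom called 0. Without the high-score libraries the median difference of the members was 0.089. An effect called at 24 h and not at 4 h is thus not shown to differ between the times.

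Within the 40 libraries the members did not form 1 block. Pearson's r of a member with the mean of the other tested members, on log2(FPKM + 1) and given as a description without a test, was 0.92 for Tek, 0.92 for Tie1, 0.91 for Cdh5 and 0.89 for Pecam1. It was 0.79 for Flt1, 0.78 for Emcn, 0.59 for Vwf, 0.56 for Kdr and 0.32 for Selp. Tek and Cdh5 were the closest pair at 0.92, and Kdr and Selp the farthest at -0.045. All points share library preparation, and the libraries with high oestrogen-responsive genes weigh on these values.

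Likeness to the members was read for 13389 tested protein-coding genes, leaving out the members and the 24 other endothelial genes. Over the 40 libraries the most alike were Abcb1a at r = 0.93, Kctd12b at 0.92, and Slc7a8, Pi16, C1s1 and Ntn1 at 0.91. Abcb1a encodes a drug efflux pump, for which anthracyclines are substrates, and Slc7a8 an amino acid transporter. The r of deviations from the group means was 0.88 to 0.93 for these genes.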

How the data were processed

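Bulk RNA of mouse uterus was sequenced in 40 libraries in 8 groups of 5; a Qiagen kit and Novogene's library service were used, per the labels. The values are FPKM, which the authors deposited for 54532 genes together with gene names and lengths, per the file headers. The submitters' processing notes name build mm10. Which aligner and counter were used, and whether strand was used, is not given in the sources used here. Genes on the opposite strand overlap Cdh5 and Selp (Gm29682, Gm16587 and Gm16548, mean 0.0938 to 0.126 FPKM), and without strand their reads cannot be told apart.

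FPKM times gene length, divided by a step fitted for each library, gave whole read numbers for 100% of values (tolerance 0.01 reads), so the depth could be rebuilt. The library total that the FPKM imply was 0.859 to 1.06 of the summed reads in genes. It was lowest, at 0.859 to 0.938, in the 4 libraries of high oestrogen-responsive score. Within each group all pairs of libraries differed by more than sampling noise (chi-square per degree of freedom of 8.40 or more). The test was limma 3.58.1 (R 4.3.3; data.table, version 1.17.8, to read files) on log2(FPKM + 1) with an intensity trend, 8 groups in 1 fit and 32 residual degrees of freedom; this scale understates changes of low genes such as Selp. A gene was kept at 1 FPKM or above in 5 or more libraries. Two-sided p-values were adjusted by Benjamini-Hochberg over 16226 genes within each of 10 comparisons. The fit was tested on simulated data for doxorubicin against vehicle at 24 h. Sele was tested by exact permutation.

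The members and gene lists were chosen with earlier results of these data known. All members are named; of each other list, up to 4 called genes with the lowest p, and Vegfa, Pgf, Angpt1, Angpt2, Nrp1, Flt4, Icam1, Vcam1 and Selplg called or not. The most alike genes are the 6 with the highest Pearson r. Alternatives were a pseudocount of 0.1, other filters, scaling by the median of ratios, fits of only the groups compared, array weights, a block for the replicate number, voom on rebuilt reads, and each library left out; fits without libraries of high oestrogen-responsive score, fits without those of high oviduct score (score more than 1 above the median of 40) and the covariate were added after seeing the data. Deviations of same-numbered libraries from their group means had r from -0.71 to 0.39. Libraries of unlike number were not read beside them, so pairing by number is neither shown nor excluded. Apart from the fit with a block for the replicate number, libraries were taken as unpaired. Python 3.11.15, pandas 2.3.3, numpy 2.4.6, scipy 1.17.1 and matplotlib 3.10.9 were also used.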

Additional observations from a re-analysis of the deposited data

Results flagged for a closer look

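In each of 80 sets of 5 libraries (10 members in 8 groups) the highest and lowest library were compared with the rest of the group, and 7 sets had a library far from the others; chance flags about 1 in 20, or 4 of 80. Sele had a library far above the rest in 2 groups: 1 doxorubicin library at 4 h, replicate 3, at 2.749 FPKM, and 1 vehicle library at 24 h, replicate 2, at 0.1404 FPKM, which holds 6 reads. The same doxorubicin library was the highest of its group for Selp, at 4.72 FPKM, Icam1, at 34.9 FPKM, and Vcam1, at 6.54 FPKM. It also had high oviduct and cilia genes. Without the libraries of high oviduct level Icam1 rose with doxorubicin at 4 h by 0.96 (limma adjusted p = 0.004). The part of those genes was not tested further. Vwf had a library far below the rest in doxorubicin with AMH at 24 h, replicate 4, at 2.856 FPKM, and in doxorubicin at 24 h, replicate 5, at 3.389 FPKM, both also among the libraries with high oviduct and cilia genes. Tek and Flt1 were low together in doxorubicin with AMH at 4 h, replicate 5, at 11.11 FPKM and 4.615 FPKM, and Tek was low in vehicle at 4 h, replicate 4, at 10.81 FPKM, 2 more libraries of that set.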

How the results depend on the processing

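For doxorubicin against vehicle at 24 h the 2 called members became 4 with a pseudocount of 0.1, 1 with no filter, 0 with only the groups compared in the fit, 6 with array weights, 8 with voom on the rebuilt reads, 0 without the high-oestrogen libraries, 1 with a covariate for the oestrogen-responsive score, and 1 to 7 when 1 library was left out (1 without doxorubicin replicate 2 or 3 or vehicle replicate 1, 2 or 4, 4 without doxorubicin replicate 5, 7 without vehicle replicate 3 or 5). For doxorubicin with AMH against vehicle at 24 h the 6 became 0 with only the groups compared, without the high-oestrogen libraries or with the covariate, and 2 to 8 with 1 library left out (2 without vehicle replicate 2, where Flt1 and Vwf were still called). For AMH at 4 h the 1 call became 3 with only the groups compared, 2 with array weights and 0 with the covariate, and stayed at 1 with each library left out. For AMH at 24 h the 0 became 4 with array weights and 0 to 2 with 1 library left out (1 without AMH replicate 3, 2 without vehicle replicate 3). For vehicle at 24 h against 4 h the 2 became 1 with no filter, 0 with only the groups compared, 5 with array weights, 0 with the covariate, 0 when high-oestrogen or when high-oviduct libraries were left out, and 0 to 3 with 1 library left out (0 without the 24 h replicate 1 or 2). Array weights also gave 1 call at 24 h between doxorubicin with AMH and doxorubicin (Flt1) and 3 for the doxorubicin effect at 24 h minus 4 h. Without the high-oviduct libraries the counts at 24 h against vehicle were 3 with doxorubicin and 7 with both agents. The cause of these moves was not tested. The share of all genes called in each alternative is not given beside these counts, so they do not show a change particular to the members. At 4 h the counts for doxorubicin against vehicle, for both agents against vehicle and for both agents against doxorubicin were 0 in every alternative run.

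Directions turned for members near 0. For doxorubicin against vehicle at 24 h Kdr was 0.0165 with median-of-ratios scaling, 0.0303 with array weights, 0.14 with voom, 0.0602 without the high-oviduct libraries and -0.0655 to 0.0814 with 1 library left out; without the high-oestrogen libraries Tek was -0.10, Tie1 -0.0154 and Cdh5 -0.11. For doxorubicin with AMH at 24 h Cdh5 was -0.0338 without the high-oestrogen libraries and -0.10 with the covariate. For doxorubicin at 4 h Tie1 was 0.0062 with voom, 0.16 without the high-oviduct libraries and -0.10 to 0.0447 with 1 left out, Pecam1 0.0581 without the high-oviduct libraries and -0.14 to 0.0397 with 1 left out, Tek 0.0088 without the high-oviduct libraries, and Cdh5 -0.0143 with the covariate and -0.087 to 0.17 with 1 left out. Of the values of single members under the alternatives, 440 kept direction and side of the threshold, 62 lost the call, 27 gained it and 26 turned. With the replicate number as a block the counts were 2, 6, 1 and 2 for the 4 comparisons with calls and 0 for the rest, as without it. Median-of-ratios scaling moved the median of all genes by at most 0.0175. Depth limits Sele, at 0 to 141 reads per library, and to a lesser degree Selp, at 39 to 367.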
